A study of Homo sapiens with 4 samples.

Results

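SR proteins, hnRNPs and the kinases that phosphorylate SR proteins regulate the choice of splice sites. Their mRNAs were followed here in 2 human tumour lines given atovaquone. Members were the genes whose symbols begin with SRSF followed by a number or with HNRNP, together with CLK1, CLK2, CLK3, CLK4, SRPK1, SRPK2, TRA2A, TRA2B and JMJD6. Of 18417 genes with a probe set of their own, 41 were members: 6 kinases, 12 SR proteins, 2 TRA2 proteins, 20 hnRNP genes and JMJD6. The rule matched 51 symbols in all, and the other 10 were listed only on probe sets that name several genes.

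Total RNA was measured on Affymetrix Human Gene ST arrays, with 1 array in each of 4 groups. U266 is an established line of multiple myeloma cells, and it was given 15 µM atovaquone for 2 h or the DMSO vehicle for 2 h. K562 is an established line of chronic myeloid leukemia cells, and it was given 20 µM atovaquone for 5 h or the DMSO vehicle for 5 h. Atovaquone is an antimicrobial naphthoquinone known to block mitochondrial complex III, and the series was titled as a search for genes it induces. With no replicate arrays, no test was possible and no difference below carries an error, so every comparison is between single arrays. Line, dose and time changed together between the treatment comparisons, and their parts cannot be told apart.

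SR proteins carry an RNA-binding domain and a tail rich in arginine and serine, and they bind exonic enhancers and recruit the spliceosome. SRPK kinases phosphorylate that tail mainly in the cytoplasm, which sends the proteins to the nucleus, and CLK kinases phosphorylate it further in the nucleus and release SR proteins from nuclear speckles. hnRNPs coat nascent transcripts and often silence exons. Many genes of these families control their own mRNA through exons or retained introns that send it to decay or hold it in the nucleus, so a gene-level array signal can mix productive and unproductive transcripts.

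The promoters of CLK1 and CLK4 are shown because these 2 kinase genes had the highest member ratios in atovaquone-treated U266 cells. Each stretch holds the 250 bases before and the 50 bases after a RefSeq start on GRCh38.p14, read 5′ to 3′ on the gene's strand. Capitals mark CGTCA, the reverse complement of TGACG, the core letters of a cAMP response element.
CLK1 promoter, chr2:200864609-200864908, minus strand: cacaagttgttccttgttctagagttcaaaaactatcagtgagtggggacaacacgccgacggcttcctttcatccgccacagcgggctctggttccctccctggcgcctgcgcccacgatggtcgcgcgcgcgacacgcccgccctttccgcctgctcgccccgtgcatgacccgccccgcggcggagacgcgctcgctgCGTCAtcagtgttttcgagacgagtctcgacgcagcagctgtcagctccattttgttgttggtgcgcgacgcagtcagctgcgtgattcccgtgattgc
CLK4 promoter, chr5:178627001-178627300, minus strand: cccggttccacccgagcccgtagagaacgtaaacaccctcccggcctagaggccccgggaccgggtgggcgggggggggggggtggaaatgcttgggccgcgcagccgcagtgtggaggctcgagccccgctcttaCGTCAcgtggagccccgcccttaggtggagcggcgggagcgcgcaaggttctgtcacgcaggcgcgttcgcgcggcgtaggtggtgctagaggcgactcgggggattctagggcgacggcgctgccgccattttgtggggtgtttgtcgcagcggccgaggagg
The marked letters began 49 bases before the start in CLK1 and 114 bases before it in CLK4. The CLK1 stretch was 62.7% GC with 35 CpG dinucleotides, and the CLK4 stretch was 70.7% GC with 36. TGACG on either strand occurred in 24 of 55 member promoter windows (43.6%) and in 24.6% of all 35114 windows. The 24 windows belonged to 21 of the 36 member genes that have a window, and no share by gene was computed for all genes. Windows of a gene can overlap, and a second CLK1 window, not shown, holds the same site 146 bases before its own start. The member windows were also richer in GC, with a median of 64% against 58.7% over all windows. CACGTG, the E-box, was in the CLK4 stretch and not in the CLK1 one, and 14.5% of member windows held it, against 7.26% of all windows. Neither stretch held GAANNTTC or TTCNNGAA, letters of the heat shock element, or CCAAT. GAANNTTC was in 5.45% of member windows and 6.77% of all windows, and TTCNNGAA in 1.82% of member windows and 7.74% of all windows. CCAAT was in 38.2% of member windows and 34.6% of all windows. These letters, searched on both strands, were chosen after the sequences had been seen, and a match is a description of a window and not a binding site.

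Intensities below are the authors' processed values on a linear scale. A log2 ratio compares 2 arrays and is centred on the median of all measured probe sets, and a gene counted as measured where both arrays reached the floor, the 40th percentile of each array's listed probe sets. The arrays were alike in level, with median intensities of 340 in U266 with atovaquone, 339 in U266 with vehicle, 319 in K562 with atovaquone and 314 in K562 with vehicle, and floors between 305 and 331. Probe sets of 1 gene differed in log2 ratio with an SD of 0.10 in the U266 comparison (399 genes). This SD was 0.12 in the K562 comparison (417 genes) and larger, 0.36, between the vehicle arrays (356 genes). These values are the nearest available gauge of measurement spread and not a replicate error. Markers of the labelled cell types were checked on the vehicle arrays. Of 5 measured plasma cell markers, 4 were at least 2-fold higher in U266 than in K562, with log2 ratios of 3.03 for SDC1 and 2.07 for IRF4, while CD38 was at −0.73. Of 4 measured erythroid markers, 3 were at least 2-fold lower in U266, with log2 ratios of −4.16 for HBZ and −3.30 for HBE1. The keratins KRT18 (−2.99) and KRT8 (−2.57), included as markers of epithelium, were also lower in U266 than in K562. In RNA from whole cultures, fewer cells of a type and less RNA per cell cannot be told apart.

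Atovaquone-treated U266 cells had more CLK1 signal than vehicle-treated ones, and most other members had ratios close to 0. CLK1 was the only measured member at least 1.5-fold higher, 1 of 39, where 0.857% of the 10731 measured genes were that much higher. None of the 39 was at least 1.5-fold lower, and 0.0932% of all genes were. At a smaller size, at least 25% higher, the members were CLK1, CLK4 and JMJD6, 3 of 39 against 2.67% of all genes. No member was at least 20% lower, the same factor downwards, against 1.57% of all genes. The remaining 36 members lay within that band of 20% lower to 25% higher, as did 95.8% of all measured genes. These counts are on the probe set used for each gene, and a second TRA2A set was 1.66-fold higher.

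CLK1, a dual-specificity kinase of nuclear speckles, had an intensity of 2628 in U266 cells with atovaquone and 1247 in those with vehicle. That is 2.12-fold, a log2 ratio of 1.09, the 33rd highest of 10731 genes. In K562 the CLK1 intensity was 1174 with atovaquone and 1186 with vehicle, a log2 ratio of −0.01. The atovaquone-treated U266 array thus stood alone, with the other 3 arrays between 1174 and 1247.

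CLK4, a close paralogue of CLK1, had an intensity of 869 with atovaquone and 589 with vehicle in U266. Its log2 ratio of 0.57 (1.49-fold) was the 97th highest of all genes and lay just short of 1.5-fold. Quantile normalisation of the 4 arrays moved it to 0.59, across that line. In K562 the CLK4 intensity was 619 with atovaquone and 511 with vehicle, a log2 ratio of 0.28. A second CLK4 probe set was below the floor on both U266 arrays, at 296 with atovaquone and 250 with vehicle, and gave no ratio there. The atovaquone array held the higher CLK4 value in each line.

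CLK2 had an intensity of 2536 with atovaquone and 2639 with vehicle in U266, a log2 ratio of −0.05. Its intensity in K562 was 2428 with atovaquone and 2436 with vehicle, a ratio of 0.0002 on the log2 scale. CLK3 had an intensity of 1676 with atovaquone and 1636 with vehicle in U266, a log2 ratio of 0.04. In K562, CLK3 was at 1535 with atovaquone and 1236 with vehicle, and its log2 ratio of 0.32, just short of 25% higher, was the highest of the measured members in that line. Among the 4 CLK genes, CLK1 and CLK4 therefore had the larger ratios in U266, and CLK3 and CLK4 in K562.

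The SRPK kinases had small treatment ratios. SRPK1, the cytoplasmic kinase of SR proteins, had an intensity of 2429 with atovaquone and 2385 with vehicle in U266, a log2 ratio of 0.04. In K562 its intensity was 4417 with atovaquone and 5003 with vehicle, a log2 ratio of −0.18. SRPK2, its paralogue, was at 2220 with atovaquone and 2069 with vehicle in U266 (log2 ratio 0.11) and at 1009 with atovaquone and 1143 with vehicle in K562 (log2 ratio −0.17). Both SRPK genes were thus slightly higher with atovaquone in U266 and slightly lower with it in K562.

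**Figure D1:**
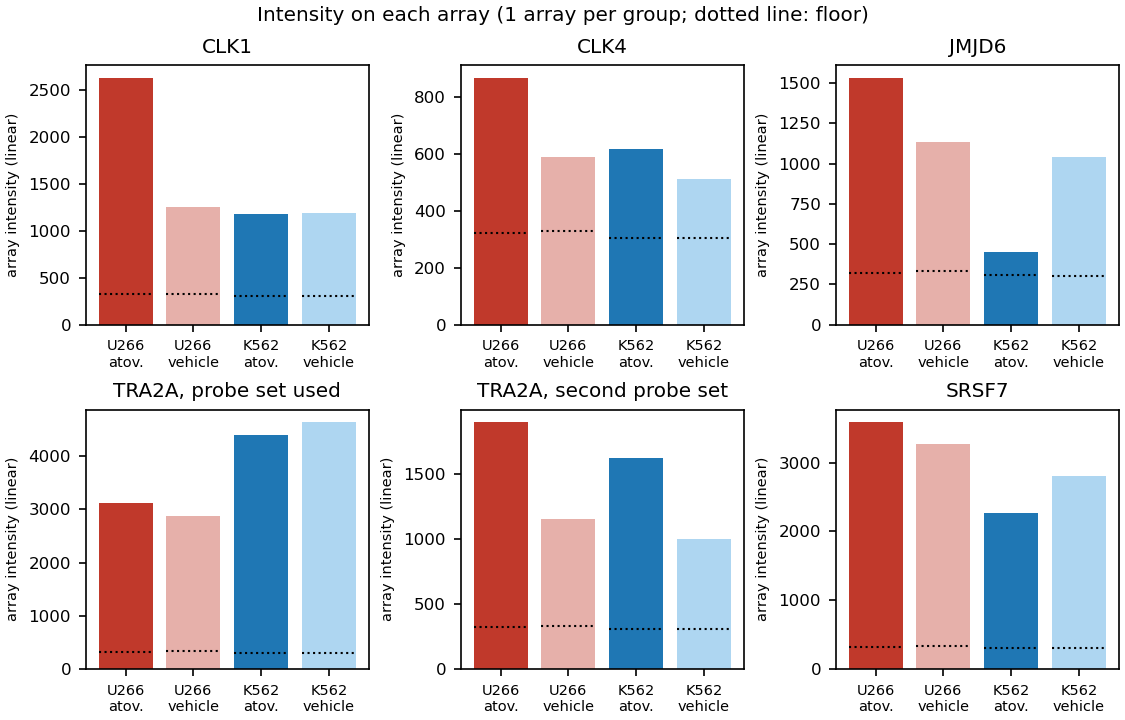
Processed intensity of selected members, among them CLK1, CLK4, TRA2A and JMJD6, on each of the 4 arrays, with 1 array per group. CLK1 is high on the U266 atovaquone array alone (2628), and JMJD6 is low on the K562 atovaquone array (450).

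JMJD6 differed with atovaquone in opposite directions in the 2 lines. It is an oxygenase that needs iron and 2-oxoglutarate and is known to hydroxylate lysines of the splicing factor U2AF2. Its intensity in U266 was 1534 with atovaquone and 1136 with vehicle, a log2 ratio of 0.44 (1.36-fold, the 151st highest of 10731 genes). In K562 it was 450 with atovaquone and 1044 with vehicle, a log2 ratio of −1.21, 2.31-fold lower and the 6th lowest of 10756 genes. The vehicle arrays lay close together at 1136 and 1044, and the treated arrays lay on either side of them. A higher floor, the 60th percentile, lay above the treated K562 value and left only an upper bound of −0.67. The JMJD6 gene (chromosome 17 in RefSeq) overlaps METTL23 by 566 bases, and the METTL23 log2 ratio was −0.08 in U266 and 0.43 in K562, opposite in sign to JMJD6 in each line. The part of that overlap in the signal was not tested.

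Apart from JMJD6, every measured member in K562 lay within the band of 20% lower to 25% higher with atovaquone. That is on the probe set used for each gene, and a second TRA2A set was 1.63-fold higher. JMJD6 was 1 of 37 measured members at least 1.5-fold lower, where 0.697% of 10756 genes were, and no member was at least 1.5-fold higher, where 1.42% of genes were. At the smaller size the counts were 0 higher and 1 lower, against 6.58% and 5.83% of all genes. The band held the other 36 members and 87.6% of all measured genes. HNRNPCL1 did not reach the floor of the vehicle array, with an intensity of 325 with atovaquone and 218 with vehicle, which gives only at least 1.07-fold higher.

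**Figure D2:**
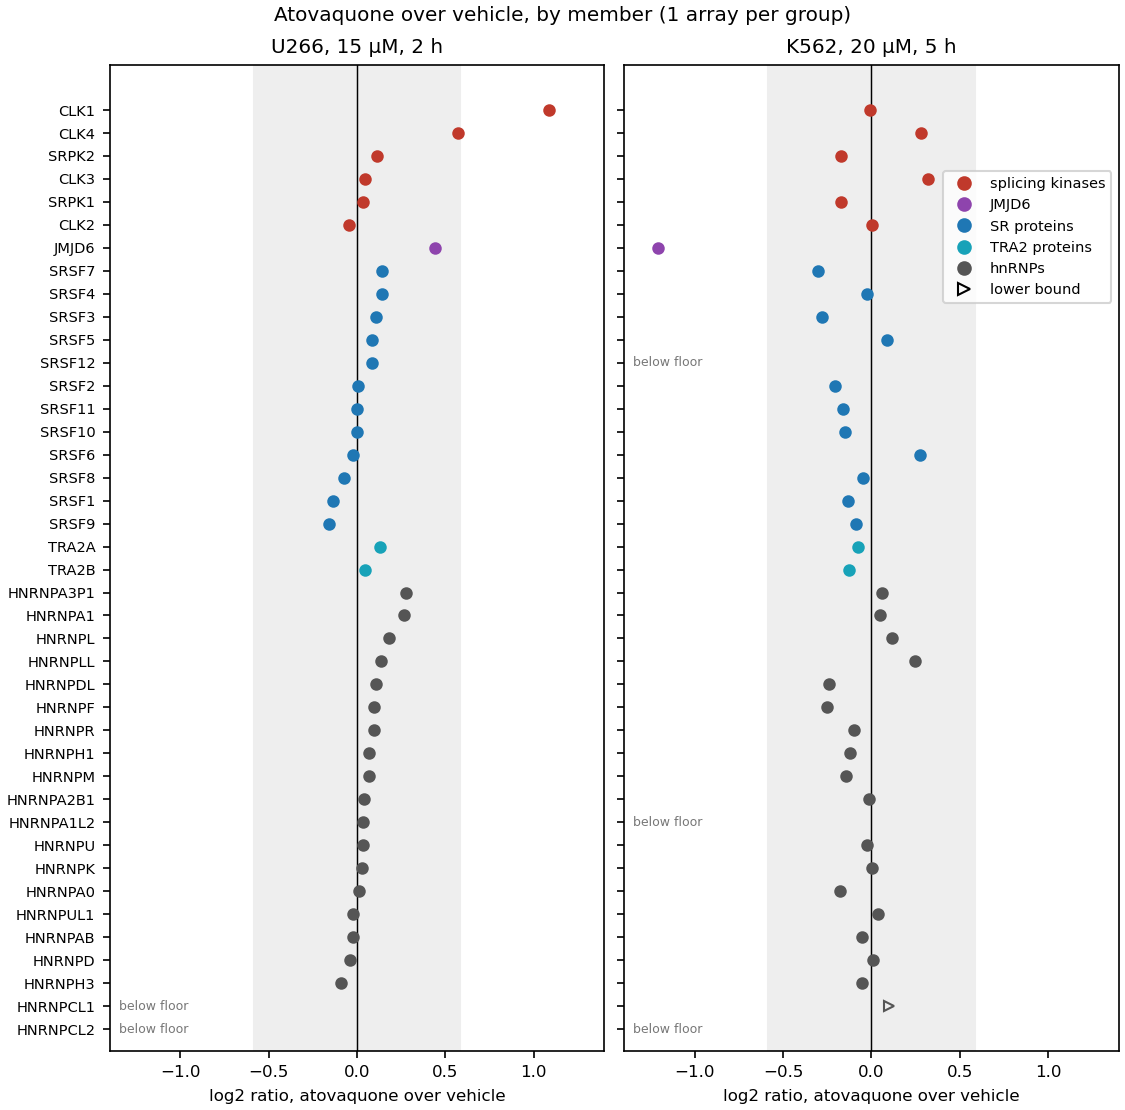
Log2 ratio of atovaquone over vehicle for each of the 41 members in U266 and in K562, coloured by role, with 1 array per group and no error. Grey shading covers ratios under 1.5-fold, filled points are measured ratios and an open triangle is a lower bound; CLK1 (1.09 in U266) and JMJD6 (−1.21 in K562) stand farthest from 0.

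Over all measured members, more lay above 0 than below it in U266, and more lay below 0 than above it in K562. In U266, 29 of 39 members (74.4%) had a ratio above 0, where 50% of all measured genes did, and the member median was 0.04 on the log2 scale, against −0.000 over all genes. In K562, 12 of 37 members (32.4%) were above 0, where 48.8% of all genes were, and the member median was −0.05, against −0.006 over all genes. Under the alternatives of scaling, floor, offset and probe set, the members above 0 numbered 25 to 31 in U266 and 9 to 16 in K562.

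**Figure D3:**
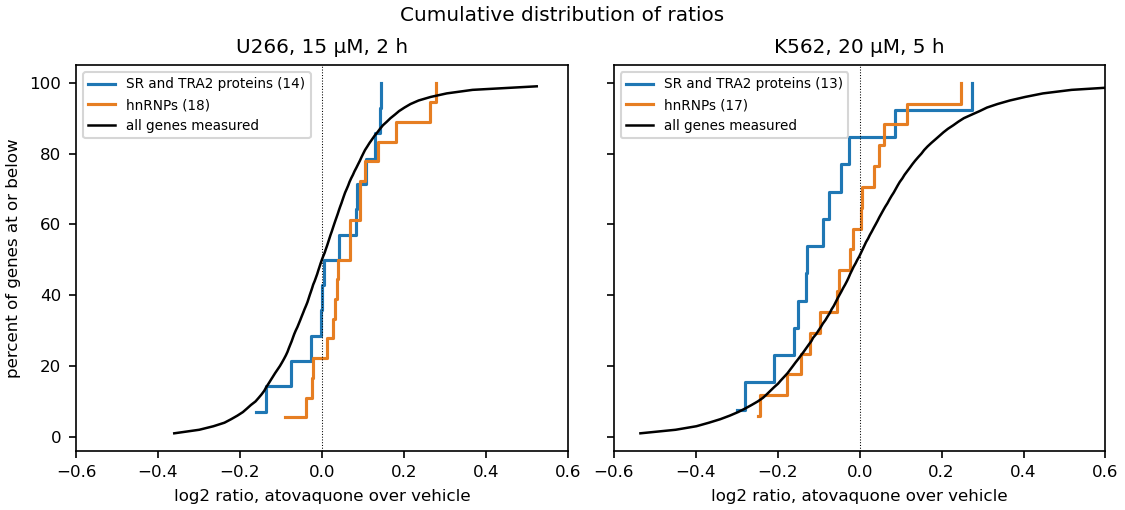
Cumulative share of genes by log2 ratio of atovaquone over vehicle, for SR and TRA2 proteins, hnRNPs and all measured genes in each line. The median log2 ratio of SR and TRA2 proteins was 0.02 in U266 and −0.13 in K562. That of hnRNPs was 0.05 in U266 and −0.02 in K562.

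Among the SR proteins themselves, the lower values with atovaquone were in K562. Of 13 measured SR and TRA2 genes there, 11 had a ratio below 0 and 2 above, with a median of −0.13. Of all 10756 measured genes in K562, 5501 were below 0. SR and TRA2 counts of 10 or 11 below 0 were found under every alternative of scaling, floor, offset and probe set. In U266, where SRSF12 was measured too, the 14 SR and TRA2 genes split into 9 above and 5 below 0. Their median was 0.02, and 50% of all measured genes were above 0. The 14 genes split into 7 and 7 without centring, with quantile normalisation or with the 60th percentile as the floor.

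SRSF7, a zinc-knuckle SR protein that also takes part in mRNA export, had the lowest SR ratio in K562, with an intensity of 2266 with atovaquone and 2800 with vehicle (log2 ratio −0.30, 1.23-fold lower). In U266 it was at 3593 with atovaquone and 3275 with vehicle, a log2 ratio of 0.14. SRSF3, the smallest of the classical SR proteins and an export adaptor, followed in K562 with 4403 with atovaquone and 5368 with vehicle, a log2 ratio of −0.28. Its U266 intensity was 5695 with atovaquone and 5322 with vehicle, a log2 ratio of 0.11. Both genes were therefore lower with atovaquone in K562 and higher with it in U266, each within the band.

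SRSF2, which binds exonic enhancers and is recurrently mutated in myeloid neoplasms, had a K562 intensity of 4440 with atovaquone and 5146 with vehicle (log2 ratio −0.21) and a U266 ratio of 0.006. MFSD11, which overlaps SRSF2 by 778 bases, had log2 ratios of 0.08 in U266 and 0.04 in K562. SRSF1, the founding SR protein, was slightly lower in each line, with intensities of 4808 with atovaquone and 5323 with vehicle in U266 (log2 ratio −0.14) and 5580 with atovaquone and 6129 with vehicle in K562 (log2 ratio −0.13). SRSF9, a short SR protein close in sequence to SRSF1, had the lowest member ratio in U266, at 1619 with atovaquone and 1822 with vehicle, a log2 ratio of −0.16. That lowest value is well inside the band. SRSF8, a retrogene of the family, was at 4302 with atovaquone and 4561 with vehicle, a log2 ratio of −0.07.

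SRSF6 went against the other SR genes in K562, with an intensity of 3597 with atovaquone and 2984 with vehicle, a log2 ratio of 0.27. Its U266 intensity was 3391 with atovaquone and 3476 with vehicle, a log2 ratio of −0.03. SRSF5 was the other SR gene above 0 in K562, with a log2 ratio of 0.09 in each line. SRSF4, SRSF8, SRSF10 and SRSF11 had K562 log2 ratios between −0.16 and −0.03 and U266 log2 ratios between −0.07 and 0.14. SRSF10 is the SR protein that becomes a splicing repressor when it loses its phosphates.

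TRA2A and TRA2B, relatives of the fly sex-determination factor Transformer 2, bind enhancers rich in purines. TRA2B had an intensity of 5000 with atovaquone and 4887 with vehicle in U266 (log2 ratio 0.04) and 5519 with atovaquone and 6053 with vehicle in K562 (log2 ratio −0.13). TRA2A gave different answers on its 2 probe sets. The brighter one, used for the gene and annotated to 8 transcript records, had intensities of 3125 with atovaquone and 2876 with vehicle in U266 (log2 ratio 0.13) and 4398 with atovaquone and 4647 with vehicle in K562 (log2 ratio −0.07). The second, annotated to 1 record, had 1901 with atovaquone and 1153 with vehicle in U266, a log2 ratio of 0.73 (1.66-fold). In K562 that second set had 1622 with atovaquone and 1001 with vehicle, a log2 ratio of 0.70 (1.63-fold). The signal of the second TRA2A set was thus higher with atovaquone in each line, while the brighter set was near 0 in each. The mean of both sets gave log2 ratios of 0.43 in U266 and 0.31 in K562.

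Among the hnRNP genes, 14 of 18 measured had a ratio above 0 in U266 and 4 below, with a median of 0.05 (13 to 15 above 0 under the alternatives). In K562, 7 of 17 were above 0 and 10 below, with a median of −0.02 (5 to 10 above 0 under the alternatives). Of all measured genes, 50% were above 0 in U266 and 48.8% in K562. The highest hnRNP counts, 15 in U266 and 10 in K562, were with no floor, where all 20 hnRNP genes were measured. HNRNPA3P1, a processed pseudogene of HNRNPA3, and HNRNPA1, a protein known to silence exons, had the highest U266 treatment ratios of the group. HNRNPA3P1 was at 754 with atovaquone and 626 with vehicle in U266, a log2 ratio of 0.28, and at 793 with atovaquone and 764 with vehicle in K562, a ratio of 0.06. HNRNPA1 was at 2790 with atovaquone and 2337 with vehicle in U266, a log2 ratio of 0.26, and at 563 with atovaquone and 546 with vehicle in K562, a ratio of 0.05. Signal from near-identical copies cannot be separated for either gene.

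HNRNPLL, known in T cells and plasma cells as a regulator of CD45 splicing, was at 2802 with atovaquone and 2566 with vehicle in U266 (log2 ratio 0.14). In K562 it was at 2355 with atovaquone and 1991 with vehicle (log2 ratio 0.25). HNRNPL, its relative that binds CA repeats, was at 4259 with atovaquone and 3780 with vehicle in U266 and at 5316 with atovaquone and 4924 with vehicle in K562, with log2 ratios of 0.18 in U266 and 0.12 in K562. These paralogues had ratios above 0 in both lines.

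HNRNPF, which binds G-rich stretches, had a K562 intensity of 2501 with atovaquone and 2982 with vehicle, a log2 ratio of −0.25, and a U266 ratio of 0.09. HNRNPDL, a relative of the AU-binding protein HNRNPD, had a K562 intensity of 3534 with atovaquone and 4195 with vehicle, a log2 ratio of −0.24, and a U266 ratio of 0.10. HNRNPA0 had a K562 log2 ratio of −0.18 and a U266 ratio of 0.01. HNRNPH3 had an intensity of 2914 with atovaquone and 3122 with vehicle in U266, a log2 ratio of −0.09, among the 5 lowest of the members there. HNRNPK, HNRNPU, HNRNPUL1, HNRNPA2B1, HNRNPAB and HNRNPD had log2 ratios between −0.05 and 0.04 in both lines. HNRNPCL2 was below the floor on all 4 arrays, with intensities of 35.4 with atovaquone and 33.8 with vehicle in U266, and 130 with atovaquone and 106 with vehicle in K562.

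Between the vehicle arrays 3 members were at least 2-fold higher in U266 than in K562, and 1 was at least 2-fold lower. Of the 37 measured on both arrays, the higher one was HNRNPA1, where 7.97% of 9483 measured genes were as much higher, and the lower one was SRPK1, where 6.97% of genes were. The other 2 higher members, SRSF12 and HNRNPA1L2, have only a lower bound, since K562 did not reach the floor, and stand outside that share. HNRNPA1 and HNRNPA1L2 were counted on their own probe sets, and the brighter sets they share were slightly lower in U266. At 1.5-fold, 2 of the 37 were higher and 4 lower, against 17.7% and 16.2% of all genes. Above 0 were 17 (45.9%), against 49.5% of all genes, and the member median was −0.02, against −0.007. The vehicle cultures ran for 2 h in U266 and 5 h in K562, so line and time cannot be told apart in these values.

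SRPK1 had a vehicle intensity of 2385 in U266 and 5003 in K562, a log2 ratio of −1.04, 2.06-fold lower in U266. SRPK2 ran the other way, with 2069 in U266 and 1143 in K562, a log2 ratio of 0.88 (1.84-fold). The CLK genes were all slightly higher in U266, with log2 ratios of 0.10 for CLK1, 0.14 for CLK2, 0.23 for CLK4 and 0.43 for CLK3, where the vehicle intensities were 1636 in U266 and 1236 in K562. JMJD6 had a ratio of 0.15. The 2 SRPK paralogues therefore differed in opposite directions between the lines, by more than any CLK gene.

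Among the SR proteins, SRSF4 had a vehicle intensity of 1402 in U266 and 2239 in K562, a log2 ratio of −0.65, and SRSF5 had 1561 in U266 and 2482 in K562, a ratio of −0.64. TRA2A was likewise lower in U266, at 2876 against 4647 in K562 (log2 ratio −0.67), though its second probe set had a ratio of 0.23. On the probe sets used for the genes, these 3 were more than 1.5-fold lower in U266. SRSF10 had a log2 ratio of −0.19 on the set used for the gene. Its second probe set was lower in U266 by more, at 2068 against 3783 in K562 (log2 ratio −0.85). The mean of both SRSF10 sets gave −0.52. SRSF12, an SR protein known to counter the classical ones, had vehicle intensities of 1354 in U266 and 167 in K562. The K562 value lay below the floor, so U266 had at least 4.51-fold more SRSF12 signal, and the U266 treatment ratio was 0.08.

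HNRNPA1 had vehicle intensities of 2337 in U266 and 546 in K562, a log2 ratio of 2.12 (4.35-fold). That probe set is annotated to 1 cDNA record. The 4 probe sets that list HNRNPA1 together with other symbols, HNRNPA1L2 among them, had ratios of opposite sign. Their log2 ratios in the same comparison were between −0.26 and −0.17. Their vehicle intensities ran from 6758 to 7883 in U266 and from 8241 to 9154 in K562. Their treatment ratios were 0.04 to 0.07 in U266 and 0.04 to 0.08 in K562. HNRNPA1L2, a retrocopy of HNRNPA1, had vehicle intensities of 1185 in U266 and 280 in K562, the second below the floor, a bound of at least 3.95-fold in favour of U266. HNRNPH1 was at 2574 in U266 and 3735 in K562, a log2 ratio of −0.51, among the 5 lowest. HNRNPLL was at 2566 in U266 and 1991 in K562 (0.39), and HNRNPA2B1 at 7539 in U266 and 6386 in K562 (0.26). The other hnRNP ratios ran from −0.46 for HNRNPR to 0.21 for HNRNPA0.

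**Figure D4:**
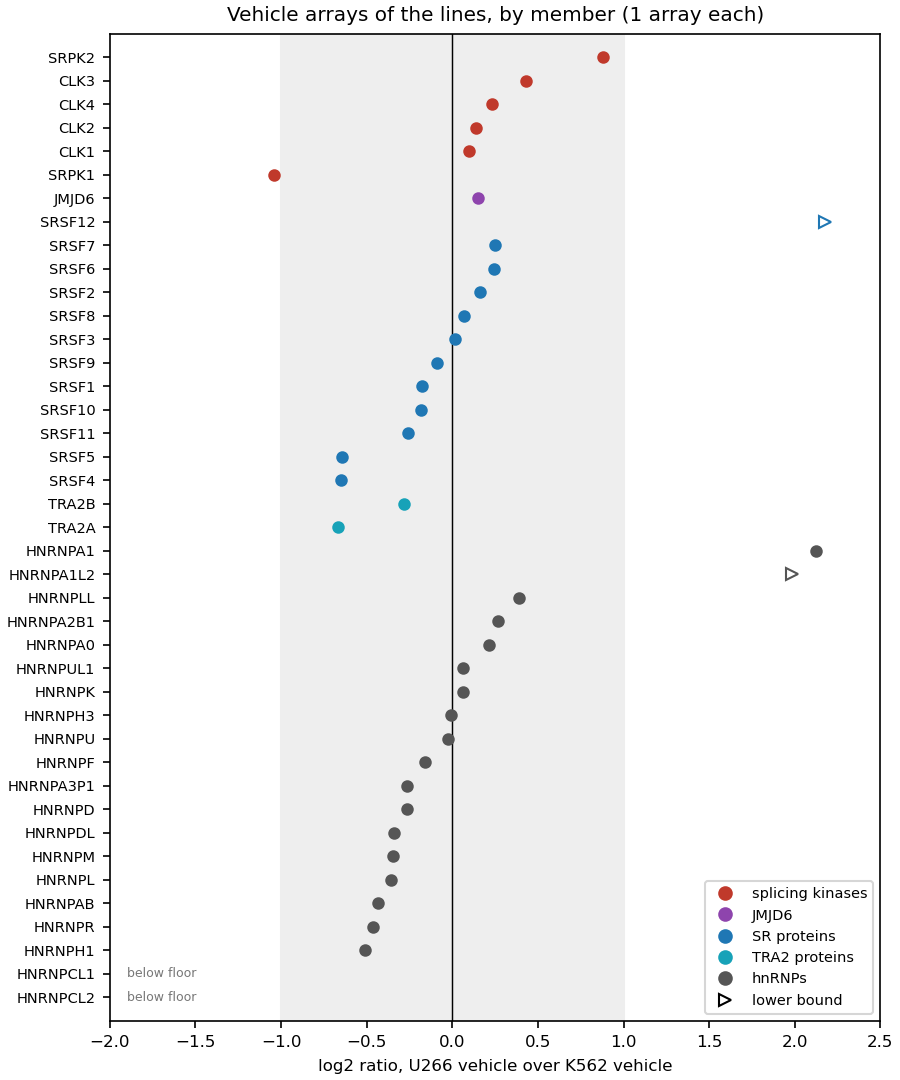
Log2 ratio of U266 over K562 on the vehicle arrays for each member, coloured by role, with 1 array per line, grey shading under 2-fold and open triangles for lower bounds. HNRNPA1 (2.12) and the lower bounds of SRSF12 and HNRNPA1L2 lie to the right, and SRPK1 (−1.04) lies farthest to the left.

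The 10 symbols without a probe set of their own, among them HNRNPC, HNRNPA3, HNRNPH2 and HNRNPUL2, fell on shared sets. The 12 shared sets with 1 or more matching symbols had log2 ratios from −0.08 to 0.15 in U266, from −0.07 to 0.15 in K562 and from −0.43 to 1.16 between the vehicle arrays. The 1.16 was from the set annotated to BSCL2 and HNRNPUL2-BSCL2. Every other shared set was below 0 between the vehicle arrays. Every shared set lay within the band of 20% lower to 25% higher in both treatment comparisons.

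For the pathway lists that follow, 50% of all measured genes had a ratio above 0 in U266 and 48.8% in K562. In U266, 0.857% of all measured genes were at least 1.5-fold higher and 0.0932% at least 1.5-fold lower. In K562 these shares were 1.42% higher and 0.697% lower. Of 26 measured U1 and U2 snRNP and Sm protein genes in U266, 20 had a ratio above 0 and 6 below, with a median of 0.03, and none reached 1.5-fold. SNRPA1 (0.30) and SF3A2 (0.26), both U2 snRNP proteins, had the largest ratios by size. In K562, 12 of 25 were above 0 and 13 below, and the largest were −0.42 for SF3B4 and −0.41 for PHF5A, subunits of the SF3B complex. Of 21 genes of the tri-snRNP and catalytic spliceosome, 17 were above 0 in U266 and 8 in K562, with PLRG1 at 0.18 and PRPF3 at −0.50 the largest by size. Neither list held a gene 1.5-fold different in either line.

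Of 21 measured SR-related proteins and coactivators, 1 was at least 1.5-fold higher in U266, where 0.857% of all measured genes were. RSRC2, an arginine- and serine-rich coiled-coil protein, had an intensity of 2221 with atovaquone and 1453 with vehicle, a log2 ratio of 0.62 (1.54-fold), and a K562 ratio of 0.30. The list median was 0.08 in U266 and −0.02 in K562. Of 24 other splicing regulators in K562, 1 was at least 1.5-fold higher, where 1.42% of all measured genes were. MBNL2, a muscleblind protein, was at 1905 with atovaquone and 1135 with vehicle, a log2 ratio of 0.75 (1.68-fold). PTBP2, the neural paralogue of PTBP1, had a K562 ratio of −0.49 and a U266 ratio of 0.24. Of 5 measured hnRNP proteins under other symbols, PCBP1 (0.16 in U266) and SYNCRIP (−0.40 in K562) had the largest ratios.

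Of 16 other kinases, phosphatases, methylases and importins that act on SR and hnRNP proteins, 9 were above 0 in U266 and 5 in K562, and none was 1.5-fold different. CDK13 was lower in each line, at −0.23 in U266 and −0.24 in K562, and DYRK2 had the largest ratio in K562, at −0.36. Nonsense-mediated decay and exon junction complex genes were below 0 for 6 of 11 in U266, where 5369 of all 10731 genes were, and for 10 of 11 in K562, where 5501 of all 10756 genes were, with medians of −0.04 in U266 and −0.14 in K562. SMG9 (−0.40) and UPF1 (−0.30) had the largest ratios in U266, and SMG8 (−0.36) and SMG1 (−0.31) in K562. No decay gene was 1.5-fold different in either line.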

How the data were processed

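Total RNA from 4 cultures, 1 per group, was labelled with biotin and hybridised to Affymetrix Human Gene ST arrays, per the labels. The deposited values are the authors' processed intensity of each probe set on a linear scale. The sources used here do not give the software, background correction or normalisation, and whether the arrays were normalised to each other is unknown. Of 33252 probe sets, 21214 were listed in the platform annotation, 19460 of them with 1 symbol. A gene took its probe set with the highest mean log2 intensity, which gave 18417 genes, 769 with several sets.

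The 40th percentile of the listed probe sets served as the floor of an array, and lower values were raised to it. Where 1 array of a comparison did not reach it, the ratio is a bound ("at least N-fold"). Log2 ratios were centred on the measured probe sets' median, a shift of −0.0096 in U266, −0.0048 in K562 and −0.025 between vehicle arrays. With 1 array per group no test was run, and counts use fixed sizes of 1.5-fold for treatment and 2-fold between vehicle arrays. The number of arrays limits the precision.

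Values on each array were to be given for members past those sizes, the 5 highest and 5 lowest ratios of each comparison, the kinases, TRA2 genes, JMJD6 and members below the floor on 1 array. Of each pathway list, the genes past 1.5-fold or else the largest 2 by size were named; RSRC2, PTBP2, CDK13 and METTL23 values in a further line were added after values were seen. Members, lists and rules were chosen with earlier results of these data known. The steps were tested on simulated data. Python 3.11.15, pandas 2.3.3, numpy 2.4.6 and matplotlib 3.10.9 were used. Promoter sequences are RefSeq's. Alternatives were no floor, floors at the 20th and 60th percentiles, quantile normalisation, no centring, the mean of a gene's probe sets, an offset of 50 and a smaller size (25% higher or 20% lower, and 1.5-fold between vehicle arrays).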

Additional observations from a re-analysis of the deposited data

Results flagged for a closer look

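JMJD6 had opposite ratios in the 2 lines, with a log2 ratio of 0.44 in U266 (1534 with atovaquone and 1136 with vehicle) and −1.21 in K562 (450 with atovaquone and 1044 with vehicle). The difference between the lines was not tested, since each group has 1 array, and dose and time differ with the line.

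The second probe set of TRA2A, which the gene-level values do not use, had a log2 ratio of 0.73 in U266 and 0.70 in K562, each above the 0.13 in U266 and −0.07 in K562 of the brighter set.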

How the results depend on the processing

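No paired analysis was possible because each group has 1 array. The 7 alternatives of scaling, floor, offset and probe set gave 783 single-member ratios. Of these, 779 moved by less than the SD between probe sets of 1 gene in the same comparison. That SD was widest between the vehicle arrays, at 0.36. The other 4 ratios moved further, and 0 of the ratios past the counting size changed sign. The 4 were CLK4 in U266 (0.41) and TRA2A in U266 (0.43), K562 (0.31) and between vehicle arrays (−0.22), each with the mean of the gene's probe sets. Members at least 1.5-fold higher in U266 numbered 1, against 3 at the 25% size and 2 with quantile normalisation. In K562, 0 were higher, against 1 (HNRNPCL1) when the floor was dropped and 1 when it was the 20th percentile. The 1 lower member there, JMJD6, left 0 under a floor of the 60th percentile, where its value is a bound. Between vehicle arrays the 1 measured member at least 2-fold higher in U266 became 2 at 1.5-fold, 3 with no floor, 3 under the 20th and 0 under the 60th percentile, where HNRNPA1 has a bound of 1.90. The 1 lower member became 4 at 1.5-fold and 2 with no floor. Floor settings act by adding or removing dim members. The member median ran from 0.033 to 0.053 in U266, from −0.071 to −0.038 in K562 and from −0.067 to 0.021 between vehicle arrays, so the last has no settled sign. One array per group leaves array-to-array variation unmeasured, and intensities near the floor are the least certain.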

Other observations

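Between the vehicle arrays, 4791 of 9483 measured genes had a log2 ratio of U266 over K562 below 0. In the lists of the wider splicing machinery this held for 20 of 25 U1 and U2 snRNP and Sm protein genes, 16 of 21 of the tri-snRNP and catalytic spliceosome and 17 of 21 SR-related proteins. It held for 3 of 5 hnRNP proteins under other symbols, 17 of 23 other splicing regulators, 13 of 16 kinases, phosphatases, methylases and importins, and 8 of 11 decay and exon junction genes. Of all measured genes, 6.97% were at least 2-fold lower in U266. In the U1 and U2 snRNP list 2 of 25 were, the Sm proteins SNRPG (−1.12) and SNRPF (−1.05), as log2 ratios. So were 1 of 21 SR-related proteins, the U1-associated LUC7L (−1.07), and 1 of 23 other splicing regulators, PTBP2 (−1.42). Of 16 kinases, phosphatases, methylases and importins 1 was, the kinase DYRK2 (−1.45). Of 11 decay and exon junction genes 2 were, the exon junction protein MAGOH (−1.64) and the decay factor UPF2 (−1.03). No gene of the tri-snRNP list or of the hnRNP proteins under other symbols was that much lower. SF3B2, a subunit of the U2 snRNP, was the 1 measured gene of these lists at least 2-fold higher in U266, with a log2 ratio of 1.06, where 7.97% of all genes were.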
